A study of Rattus norvegicus with 6 samples.

Results

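The genes described here encode amino acid transporters of the solute carrier (Slc) families 1, 3, 6, 7, 36, 38 and 43. They were taken by gene name from the list of rat genes of the rn6 genome, leaving out *Slc1a2*, *Slc1a3* and *Slc6a8*, and 56 of 17337 gene names met this rule. Of these, 55 are carriers or their partner chains. The remaining name, *Slc7a6os*, was matched by spelling only, as it is the gene on the opposite strand next to *Slc7a6*, and it was left out of all sums over carriers. The rule also takes in *Slc6a2*, *Slc6a3* and *Slc6a4*, which carry monoamines and not amino acids, and *Slc43a3*, which carries nucleobases.

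The cells were untreated cortical neural progenitors of Sprague Dawley rats at embryonic day 14, grown with bFGF and EGF and collected after the second passage. There was 1 condition and no control, with 2 biological replicates, A and B, each with 2 technical libraries of polyA-selected RNA (A1, A2, B1 and B2). The growth medium contained a stabilized glutamine source (GlutaMAX), which all libraries share. A bulk culture of this kind can hold several cell types, so that a lower level of a transcript cannot be told apart from fewer cells that make it. Levels are given in FPKM, fragments scaled to transcript length and library size, which allows genes to be compared per length. Technical libraries were averaged within each replicate, and means are given with the SD between A and B. No p-value is given, because 2 replicates of 1 condition allow no test.

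Amino acids do not cross the plasma membrane by themselves and need carriers. Some carriers use the sodium gradient to concentrate amino acids in the cell (Slc1, Slc6 and most Slc38), others exchange one amino acid for another (most Slc7, as dimers with a heavy chain of Slc3), and others are driven by protons or run without a gradient (Slc36, Slc43). In the brain the same families clear the transmitters glutamate, GABA and glycine, and in growing cells they bring in leucine and glutamine, which the mTORC1 pathway reads at the lysosome. When amino acids run short, the kinase Gcn2 and the transcription factor Atf4 raise the transcription of several of these carriers through amino acid response elements in their genes.

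The promoters of the pair of genes with the highest levels are shown because their products work as 1 dimer, *Slc3a2* as the heavy chain and *Slc7a5* as the light chain. They are from RefSeq on GRCr8, not on the rn6 build of the expression tables, and run from 250 bases before to 50 bases after an annotated start. For *Slc3a2*, on the minus strand, the table gives 2 starts, chr1:215048015-215048314 and chr1:215039621-215039920. For *Slc7a5*, also on the minus strand, it gives chr19:66872363-66872662. Capitals mark the letters of the antioxidant response element core TGACNNNGC (in the second *Slc3a2* promoter, on the opposite strand, at position -45 from the start) and of the E-box CACGTG (in the *Slc7a5* promoter, at position -179). In the first *Slc3a2* promoter none of the motifs searched was found, which says only that these letters are not in this window.
Slc3a2, upstream start: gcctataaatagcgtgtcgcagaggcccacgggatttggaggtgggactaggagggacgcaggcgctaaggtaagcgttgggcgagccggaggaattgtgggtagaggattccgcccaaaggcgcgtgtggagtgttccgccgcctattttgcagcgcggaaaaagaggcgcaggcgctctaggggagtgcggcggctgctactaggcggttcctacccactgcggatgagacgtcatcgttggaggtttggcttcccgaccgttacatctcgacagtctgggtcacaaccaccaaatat
Slc3a2, downstream start: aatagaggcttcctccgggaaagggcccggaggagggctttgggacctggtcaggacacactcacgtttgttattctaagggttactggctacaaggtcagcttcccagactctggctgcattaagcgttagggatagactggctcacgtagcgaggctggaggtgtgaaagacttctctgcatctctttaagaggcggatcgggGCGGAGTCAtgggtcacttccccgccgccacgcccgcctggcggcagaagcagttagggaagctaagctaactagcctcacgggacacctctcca
Slc7a5: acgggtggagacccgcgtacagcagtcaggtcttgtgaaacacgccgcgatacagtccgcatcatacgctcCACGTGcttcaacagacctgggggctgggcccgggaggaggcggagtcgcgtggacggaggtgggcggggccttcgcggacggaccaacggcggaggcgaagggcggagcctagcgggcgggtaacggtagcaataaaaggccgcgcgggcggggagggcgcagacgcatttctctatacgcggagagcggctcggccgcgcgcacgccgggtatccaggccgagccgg

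By level, most amino acid transporter genes were low and a few were high. Of the 56 members, 28 had a mean of at least 1 FPKM, a smaller share than the 60.5% of all gene names, 11 had at least 10 FPKM and 2 had at least 100 FPKM. The median over the members was 0.940 FPKM, against 3.83 FPKM over all gene names. The 55 carriers and heavy chains summed to 835 ± 19.3 FPKM (SD, n = 2), and the 5 highest held 77.4% of this sum. The small SD hides a wider spread within B, with 698 FPKM in B1 and 999 FPKM in B2, beside 822 and 820 FPKM in A. At the other end, 5 members were listed at 0 in every library (8.93%, against 13.3% of all names). The sums over families were 336 ± 36.6 FPKM for Slc3, 172 ± 17.7 for Slc7, 159 ± 36.3 for Slc6, 115 ± 1.25 for Slc38, 40.7 ± 36.7 for Slc1, 9.96 ± 0.979 for Slc43 and 1.78 ± 0.241 for Slc36 (SD, n = 2). The order of Slc7 and Slc6 lay within the spread between replicates. The small SD of Slc38 likewise hides 92.2 FPKM in B1 and 140 FPKM in B2.

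**Figure D1:**
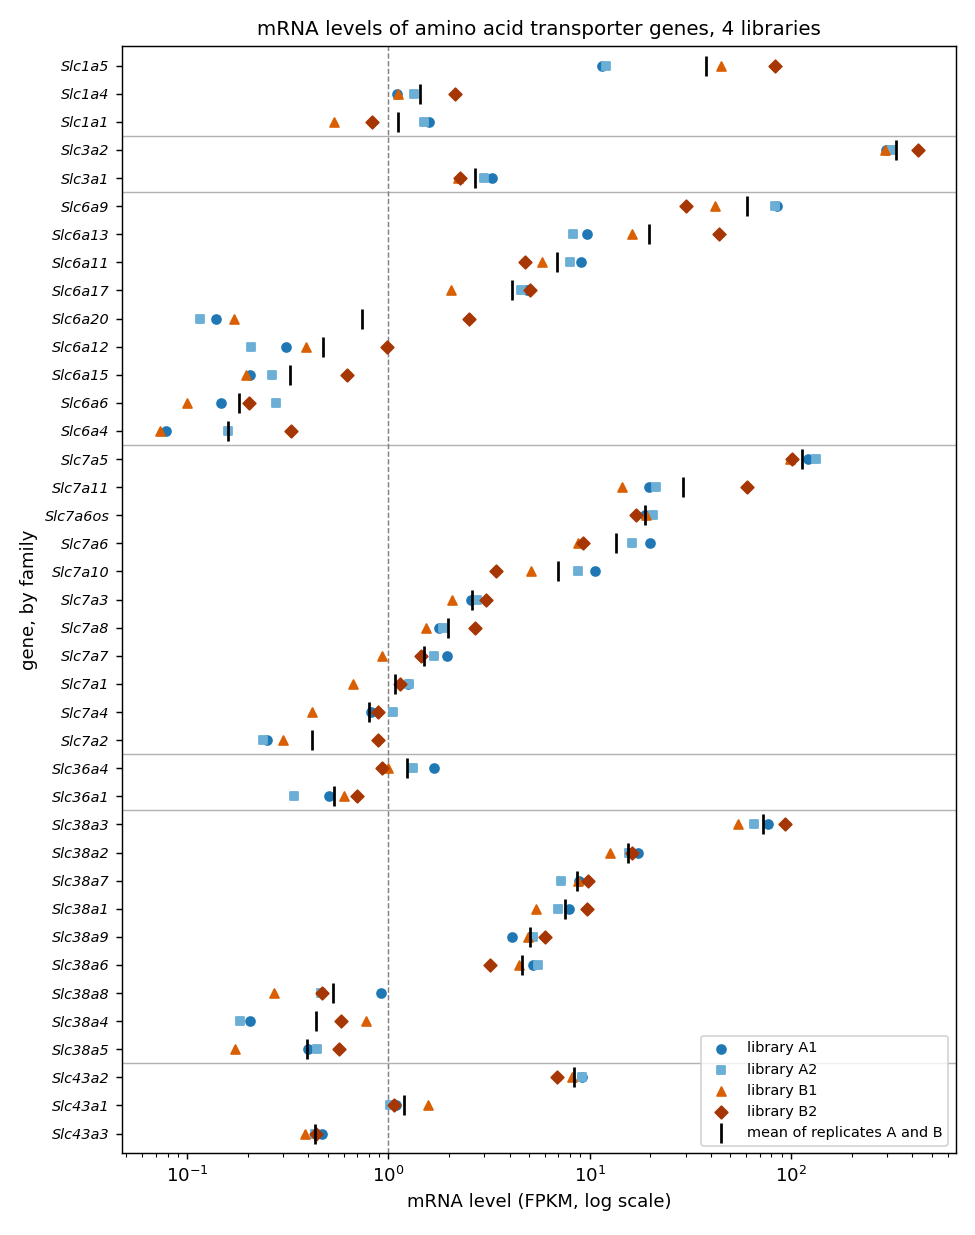
mRNA level (FPKM, log scale) of 39 members with a mean of at least 0.1 FPKM, grouped by family. Points are the 4 libraries, black ticks the mean of replicates A and B, and the dashed line 1 FPKM. *Slc3a2* is highest with 293 to 426 FPKM, and the highest library of *Slc6a20* lies at 2.52 FPKM against 0.116 to 0.171 FPKM in the others.

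The libraries differ in depth and in 1 technical pair. The coverage that corresponds to 1 FPKM was 22.7 to 24.4 in A1, A2 and B1 and 6.83 in B2, so low values are least precise in B2. Among members with a mean of at least 1 FPKM, 0 of 28 were at least 2-fold apart between A1 and A2, and 3 were at least 2-fold higher in B2 than in B1 (*Slc7a11*, *Slc6a13* and *Slc6a17*). This is 10.7% of the members, against 3.95% of all names at that level. No member with 1 FPKM or more in the other libraries was listed at 0 in B2, a pattern found for 18 names in all. All 8 progenitor markers examined (*Sox2*, *Nes*, *Pax6*, *Vim*, *Fabp7*, *Hes5*, *Notch1* and *Emx2*) had means of at least 13.2 FPKM.

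*Slc3a2* encodes the heavy chain (also called CD98hc) that brings the light chains of Slc7 to the cell surface. It lies on the minus strand of rn6 at chr1:224906566-224921029 and had 297 and 317 FPKM in A1 and A2 and 293 and 426 FPKM in B1 and B2. The mean of 333 ± 37.2 FPKM (SD, n = 2) was rank 262 among 17337 names. Library B2 was above the other 3, which lay close together, and the libraries of A and B overlapped. *Slc7a5*, the leucine and large neutral amino acid exchanger LAT1 (chr19:54693959-54722563, minus strand), had 121 and 134 FPKM in A and 99.2 and 102 FPKM in B, a mean of 114 ± 19.0. Both libraries of B were lower than both of A.

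The other light chains known to pair with *Slc3a2* were lower, and 1 of them depended on a single library. *Slc7a11*, the cystine and glutamate exchanger xCT that supplies cysteine for glutathione, had 19.7 and 21.3 FPKM in A, 14.5 in B1 and 60.8 in B2, so that B2 was 4.19 times B1 while B1 was below both libraries of A. *Slc7a6*, which exchanges cationic for neutral amino acids, had 20.1 and 16.3 FPKM in A and 8.72 and 9.29 in B. *Slc7a10*, the small neutral amino acid exchanger that carries glycine and D-serine, had 10.7 and 8.71 FPKM in A and 5.11 and 3.42 in B. For *Slc7a6* and *Slc7a10* the libraries of A and B did not overlap. *Slc7a8* (LAT2) and *Slc7a7* stayed low, with means of 1.97 ± 0.202 and 1.51 ± 0.442 FPKM.

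Together the 6 light chains of *Slc3a2* summed to 175 and 184 FPKM in A and 129.95 and 179 FPKM in B, less than the heavy chain in every library. The level of *Slc3a2* over this sum was 1.70 and 1.72 in A and 2.25 and 2.38 in B, with no overlap. *Slc7a5* made up 69.1% and 72.8% of the light chain sum in A, 76.3% in B1 and 56.7% in B2. The lower share in B2 went with *Slc7a11*, which made up 33.9% there and 11.2% to 11.6% in the other libraries.

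**Figure D2:**
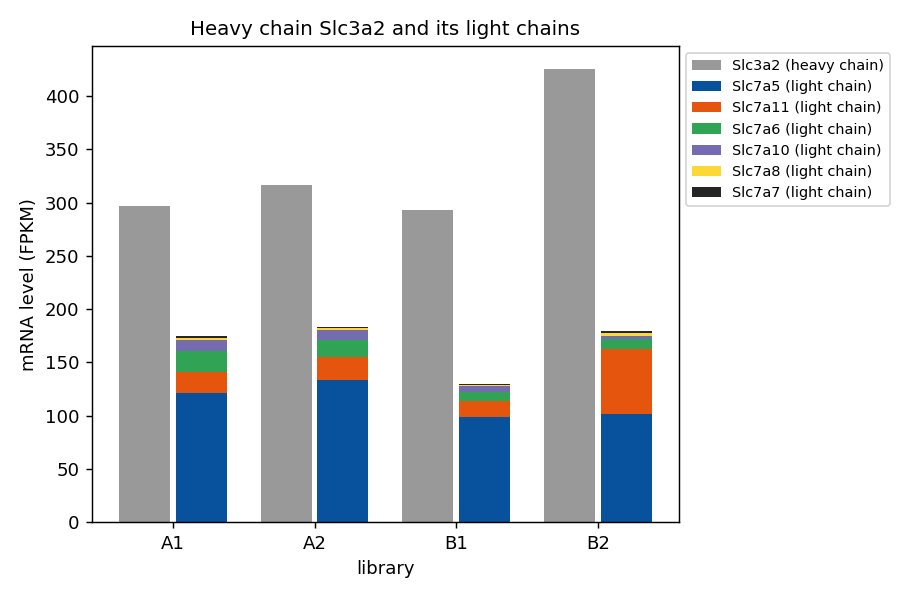
mRNA level (FPKM) of the heavy chain *Slc3a2* (grey bars) and of its 6 light chains (stacked bars) in each library. The heavy chain exceeds the summed light chains in every library, *Slc7a5* is the largest part of each stack, and *Slc7a11* is 60.8 FPKM in B2 against 14.5 to 21.3 FPKM elsewhere.

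The second heavy chain, *Slc3a1* (rBAT), serves cystine uptake in the kidney together with *Slc7a9*. *Slc3a1* had 3.27 and 2.98 FPKM in A and 2.22 and 2.28 FPKM in B, a mean of 2.69 ± 0.621. Its partners were near 0, with means of 0.0219 FPKM for *Slc7a9* and 0.0160 FPKM for *Slc7a13*. Transcript of this heavy chain was thus measured with almost none of either light chain known to pair with it. Among the other Slc7 members, *Slc7a12* had a mean of 0.0298 FPKM and *Slc7a15* was listed at 0 in every library.

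The cationic carriers of Slc7, which bring in arginine and lysine, were low. *Slc7a3* (CAT3) had 2.58 and 2.74 FPKM in A and 2.07 and 3.05 FPKM in B, and *Slc7a1* (CAT1), the form known as widespread, had 1.25 and 1.27 FPKM in A and 0.665 and 1.14 in B. The level of *Slc7a3* was between 2.06 and 3.11 times that of *Slc7a1* in the 4 libraries. *Slc7a2* (CAT2) had 0.25 and 0.238 FPKM in A, 0.299 in B1 and 0.888 in B2. The related *Slc7a4* and *Slc7a14* had means of 0.799 ± 0.202 and 0.0718 ± 0.0774 FPKM. The 3 cationic carriers summed to 4.11 ± 0.0770 FPKM (SD, n = 2), a small SD that hides 3.03 FPKM in B1 and 5.08 FPKM in B2.

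In the Slc1 family, *Slc1a5* held 88.3% ± 11.4 of the summed level. *Slc1a5* (ASCT2), a sodium-dependent exchanger of glutamine and other neutral amino acids, lies on the plus strand at chr1:78710686-78724789. It had 11.6 and 12.1 FPKM in A, 45.0 in B1 and 83.4 in B2, a mean of 38.02 ± 37.03. Both libraries of B were far above both of A, and B1 and B2 differed from each other 1.85-fold. Its relative *Slc1a4* (ASCT1), which carries serine and alanine, had 1.11, 1.34, 1.12 and 2.15 FPKM in A1, A2, B1 and B2, so that *Slc1a5* was 9.05 to 10.4 times *Slc1a4* in A and 38.7 to 40.3 times in B.

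The glutamate transporters left in the list were low or near 0. *Slc1a1* (EAAT3) had 1.592 and 1.498 FPKM in A and 0.538 and 0.831 FPKM in B, with B below A. *Slc1a6* and *Slc1a7*, known from Purkinje cells and the retina, had means of 0.0357 and 0.0987 FPKM. For comparison, the glial glutamate transporter *Slc1a3*, which the rule leaves out, had 174 to 213 FPKM.

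The Slc38 carriers, which move glutamine and small neutral amino acids, were led by *Slc38a3*. *Slc38a3* (SNAT3, system N), known as a glutamine carrier of astroglia (chr8:116406289-116422328, minus strand), had 76.96 and 65.2 FPKM in A, 54.8 in B1 and 93.4 in B2, a mean of 72.6 ± 2.13. The small SD hides a spread between B1 and B2 that was wider than that between the replicates. *Slc38a2* (SNAT2), known as the amino-acid-regulated member of system A, had 17.3 and 15.6 FPKM in A and 12.6 and 16.2 FPKM in B. *Slc38a1* (SNAT1), the neuronal system A carrier, had 7.94 and 6.92 FPKM in A and 5.43 and 9.75 FPKM in B. For all 3 the libraries of A and B overlapped.

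The remaining Slc38 members fell into a middle and a low group. *Slc38a7* and *Slc38a9* act at the lysosome, where *Slc38a9* senses arginine for mTORC1, and had means of 8.68 ± 0.916 and 5.06 ± 0.561 FPKM. *Slc38a6* had 4.596 ± 1.08 FPKM. *Slc38a8*, *Slc38a4* and *Slc38a5* were below 1 FPKM, with means of 0.530, 0.436 and 0.396 FPKM. Of these, *Slc38a4*, a system A carrier known from liver and placenta, had 0.206 and 0.184 FPKM in A and 0.771 and 0.583 FPKM in B, with no overlap at a low level.

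In the Slc6 family, 5 of 17 members had at least 1 FPKM. *Slc6a11* (GAT3), a GABA transporter of astrocytes, had 9.03 and 7.96 FPKM in A and 5.82 and 4.79 in B. It was lower in the libraries of B without overlap. *Slc6a13* (GAT2; chr4:153876149-153911966, plus strand), known in the brain from the meninges, had 9.74 and 8.29 FPKM in A, 16.3 in B1 and 44.1 in B2, and went the other way. *Slc6a12* (BGT1), which carries betaine and GABA, had 0.309 and 0.207 FPKM in A and 0.389 and 0.990 in B.

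Glycine transporters were present as the glial form. *Slc6a9* (GlyT1; chr5:136669674-136703697, plus strand) had 85.7 and 83.5 FPKM in A and 41.9 and 30.1 FPKM in B, a mean of 60.3 ± 34.4. Both libraries of B were far below those of A. *Slc6a5* (GlyT2), of inhibitory neurons in hindbrain and spinal cord, had a mean of 0.00666 FPKM and was listed at 0 in B2. *Slc6a9* was 8.03 to 9.59 times *Slc7a10*, the other glycine carrier described above, in the 4 libraries. By mean *Slc6a9* was below *Slc38a3*, but their SDs overlap and the order did not exceed the spread between replicates.

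The other Slc6 members were low. *Slc6a17*, a vesicular carrier of neutral amino acids, had 4.90 and 4.57 FPKM in A, 2.04 in B1 and 5.03 in B2. *Slc6a20*, which carries proline, had 0.140 and 0.116 FPKM in A, 0.171 in B1 and 2.52 in B2, so its mean of 0.737 rests on 1 library. *Slc6a15*, the taurine transporter *Slc6a6* and the proline transporter *Slc6a7* had means of 0.324, 0.182 and 0.0461 FPKM. The monoamine transporters *Slc6a2*, *Slc6a3* and *Slc6a4* (for noradrenaline, dopamine and serotonin) summed to 0.0789 to 0.327 FPKM. *Slc6a14*, *Slc6a18* and *Slc6a19*, known from gut and kidney, were listed at 0 in every library.

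The proton-coupled Slc36 carriers summed to the lowest level of the 7 families. *Slc36a4* had 1.69 and 1.33 FPKM in A and 0.994 and 0.926 FPKM in B, and *Slc36a1*, a lysosomal exporter of small amino acids, had 0.509, 0.338, 0.605 and 0.697 FPKM. *Slc36a2* had a mean of 0.00811 FPKM and *Slc36a3* was listed at 0 throughout. In Slc43, *Slc43a2* (LAT4), which lets out leucine and other large neutral amino acids, had 9.12 and 9.17 FPKM in A and 8.16 and 6.91 in B. Its relatives *Slc43a1* (LAT3) and *Slc43a3* had means of 1.19 ± 0.186 and 0.431 ± 0.0263 FPKM.

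Replicates A and B were then compared for every member. A member was counted as differing when its mean was at least 1 FPKM, its difference was at least 1 on the log2(FPKM + 1) scale, and the libraries of A and B did not overlap. By this rule 4 of the 28 members at 1 FPKM or more differed (14.3%), where the rule counts 6.15% of the 10481 gene names at that level. Higher in B were *Slc1a5* (difference of 2.28 on the log2(FPKM + 1) scale) and *Slc6a13* (1.48), 2 members where the rule counts 4.58% of all names in that direction. Higher in A were *Slc6a9* (B minus A, -1.23) and *Slc7a10* (-1.04), 2 members where the rule counts 1.57% of all names. The scale understates the change of low genes. As a ratio of FPKM, *Slc1a5* was 5.43-fold and *Slc6a13* 3.35-fold higher in B, and *Slc6a9* was 2.35-fold and *Slc7a10* 2.27-fold higher in A.

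These calls rest in part on library B2. With B1 alone standing for replicate B, only *Slc1a5* met the rule (1.84), while *Slc6a9* (-0.996), *Slc7a10* (-0.80) and *Slc6a13* (0.79) kept their direction and fell short in size. This was 1 of the 27 members at 1 FPKM or more in that setting, beside 573 of 10413 gene names. The higher share among members than among all names was thus not seen without B2. *Slc7a6*, which did not overlap either, was at -0.93 with both libraries of B and at -0.97 with B1 alone. *Slc7a10* shares its last 206 bases with *Lrp3* (26.0 to 35.1 FPKM) and lies within the span listed for *Pdcd5* (258 to 298 FPKM), and *Slc6a9* shares 23 bases with *Ccdc24* (0.594 to 1.20 FPKM). All 3 are on the opposite strand, and the strand setting of the libraries is not given in the sources used here.

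Smaller differences were counted by direction. Libraries of A and B did not overlap for 15 of the 28 members (53.6%, against 60.1% of all names at that level), with B lower for 13 and higher for 2. Of the 28 members, both libraries of B were thus lower in 46.4% and higher in 7.14%, against 32.0% and 28.1% of all 10481 names. The median difference over the 28 members was -0.22 on the log2(FPKM + 1) scale, against -0.03 over all names at that level, and ranged from -0.41 to -0.02 over the 4 pairings of a single library of A with one of B. Among the lower members were *Slc7a5*, *Slc6a9*, *Slc7a6*, *Slc43a2*, *Slc7a10*, *Slc6a11*, *Slc38a6*, *Slc3a1*, *Slc7a7*, *Slc36a4*, *Slc1a1* and *Slc7a1*.

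**Figure D3:**
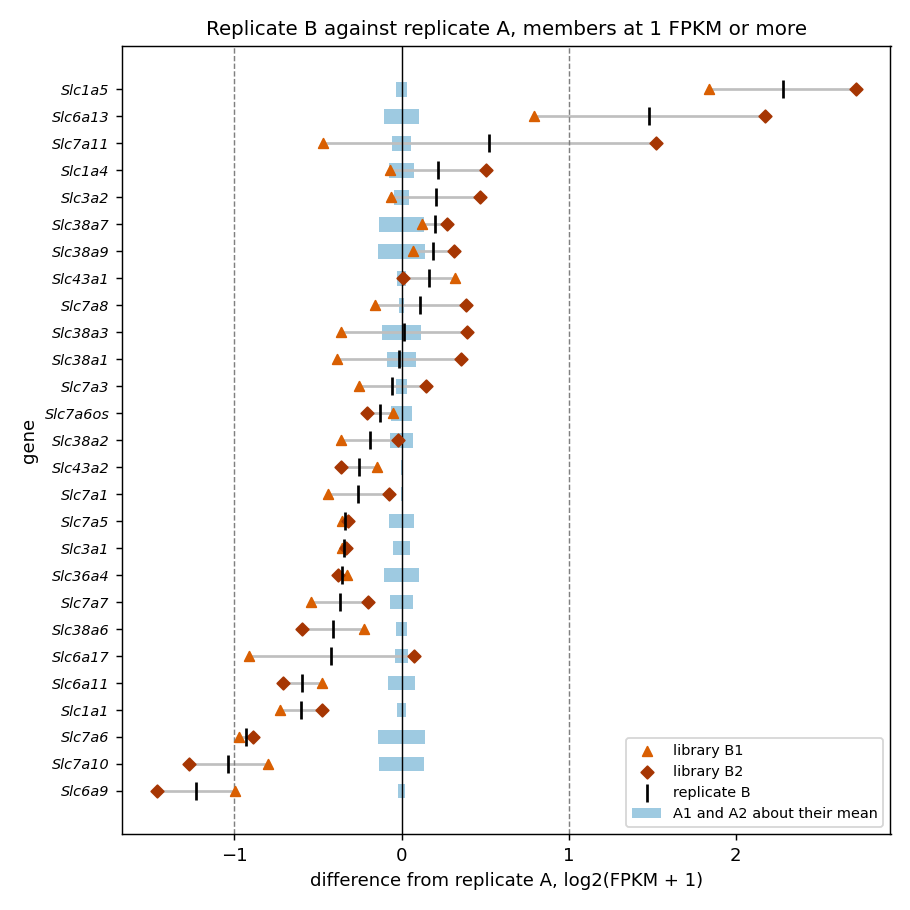
Difference from the mean of A1 and A2 on the log2(FPKM + 1) scale for 27 members with a mean of at least 1 FPKM. Triangles are B1, diamonds B2, ticks replicate B, blue bars the span of A1 and A2 about their mean, and dashed lines a difference of 1. *Slc1a5* and *Slc6a13* lie to the right and *Slc6a9* and *Slc7a10* to the left, and *Slc7a11* has B1 at -0.47 and B2 on the other side of 0.

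Marker genes of other cell types moved between the replicates as well. All 9 meningeal and mesenchymal markers (*Col1a1*, *Col1a2*, *Col3a1*, *Dcn*, *Lum*, *Foxc1*, *Tbx18*, *Ogn* and *Aldh1a2*) were higher in B by the same rule, and they summed to 702 to 720.0 FPKM in A, 2642 FPKM in B1 and 3454 FPKM in B2. Relative to the mean of A1 and A2 this sum was 3.72 in B1 and 4.86 in B2, beside 3.81 and 7.05 for *Slc1a5*, 1.81 and 4.89 for *Slc6a13* and 1.34 and 19.7 for *Slc6a20*. The part of the cells so marked in the members' differences was not tested. Of the 8 progenitor markers, 5 were lower in both libraries of B, beside 32.0% of all names at 1 FPKM or more. By the rule 2 of them (*Fabp7* and *Hes5*) were higher in A, where it counts 1.57% of all names. The summed progenitor markers, of which *Fabp7* made up 51.6% to 81.1%, were at 0.453 and 0.486 of A in B1 and B2, while without *Fabp7* they were at 0.809 and 1.23.

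The remaining marker lists were counted in the same way. Of all names at 1 FPKM or more, the rule counts 4.58% as higher in B and 1.57% as higher in A. Both libraries of B were lower for 32.0% and higher for 28.1% of these names. Of 8 neuronal markers, 0 met the rule and 5 were lower in both libraries of B, and of 5 GABAergic markers 1 (*Dlx1*) was higher in A. The GABAergic markers summed to 184 to 194 FPKM in A and 88.8 to 93.4 FPKM in B. This sum was mostly *Dlx1* (replicate means of 106 FPKM in A and 39.6 FPKM in B) and *Dlx2* (64.2 and 37.4 FPKM). *Gad2* was also lower in both libraries of B (means of 9.43 and 5.35 FPKM). The libraries of A and B overlapped for *Gad1* (means of 6.17 and 5.18 FPKM) and *Slc32a1* (3.22 and 3.55 FPKM). Of 4 astrocyte markers, *S100b* was higher in A and the others did not meet the rule, with a sum of 988 to 991 FPKM in A and 779 to 1177 FPKM in B. Of 5 oligodendrocyte lineage markers, 3 were higher and 1 (*Sox10*, at a mean of 0.258 FPKM) lower in both libraries of B. Only *Pdgfra* was higher in B by the rule. *Olig2* had 66.8 and 69.3 FPKM in A, 103 in B1 and 49.7 in B2. The list summed to 253 to 278 FPKM in A, 693 FPKM in B1 and 352 FPKM in B2. Of 5 endothelial and 5 microglial markers, 0 reached a mean of 1 FPKM. Endothelial markers summed to 0.670 to 0.687 FPKM in A and 0.795 to 2.37 FPKM in B, and microglial markers to 0.393 to 0.626 FPKM in A and 1.13 to 1.34 FPKM in B. The 4 glutamatergic markers were all below 1 FPKM, and of 3 choroid plexus markers *Ttr* was higher in A.

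**Figure D4:**
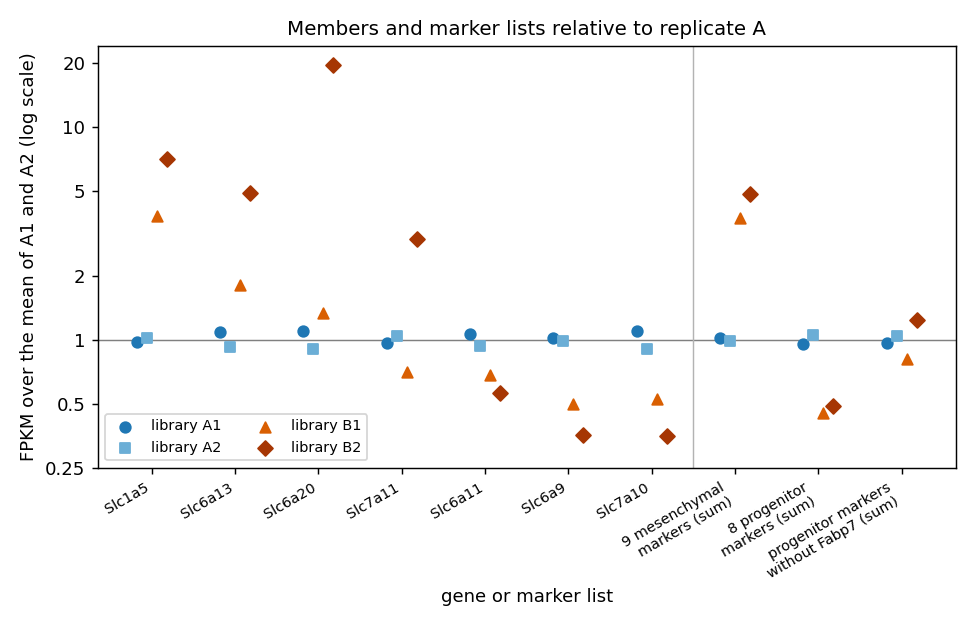
FPKM of 7 members and summed FPKM of marker lists in each library, divided by the mean of A1 and A2 (log scale). *Slc1a5* and the mesenchymal marker sum lie at 3.72 or more in both libraries of B, *Slc6a13* (4.89), *Slc6a20* (19.7) and *Slc7a11* (2.96) are highest in B2, and *Slc6a9* and *Slc7a10* lie at 0.353 to 0.527 in B.

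Genes that act with the transporters were read from 4 lists. Of 15 genes of the amino acid response through Gcn2 and Atf4, all were found and 14 had at least 1 FPKM. Both libraries of B were lower for 8 of the 15 and higher for 4, beside 32.0% and 28.1% of all names at 1 FPKM or more. The median difference over the 14 was -0.20 on the log2(FPKM + 1) scale, against -0.03 over all names at that level. By the rule 2 were higher in B, where it counts 4.58% of all names, and 0 were higher in A, where it counts 1.57%. The 2 were *Nupr1*, a stress-response factor (30.7 and 33.2 FPKM in A, 83.3 and 149 in B), and *Eif4ebp1*, the translation repressor (44.6 and 53.3 FPKM in A, 104 and 110.2 in B). *Atf4* itself had 202 and 206 FPKM in A and 139 and 180.2 in B. The means of the 15 genes ran from 0.190 FPKM (*Trib3*) to 182 FPKM (*Atf4*), with a median of 18.2 FPKM. Of 25 genes of amino acid sensing at the lysosome, 22 were found, 21 had at least 1 FPKM and 0 met the rule in either direction. Of the 22, 7 were lower and 5 higher in both libraries of B, shares not above those of all names, and the median difference was -0.04.

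All 26 genes of amino acid synthesis and breakdown had at least 1 FPKM. Both libraries of B were lower for 11 and higher for 8, beside 32.0% and 28.1% of all names at that level. The median difference was -0.17, against -0.03 over all names at that level. By the rule 1 gene was higher in B, where it counts 4.58% of all names, and 1 was higher in A, where it counts 1.57%. *Phgdh*, which opens serine synthesis, was highest with 849 and 920 FPKM in A and 542 and 471 in B. *Glul*, the glutamine synthetase, had 78.6 and 86.2 FPKM in A and 182 and 225 in B and was higher in B by the rule. *Aldh18a1*, of proline synthesis, was counted as higher in A, but it was listed at 0 in B2 and at 14.1 to 16.0 FPKM in the others. Of 15 other amino acid carriers outside the rule, 12 were found, 9 had at least 1 FPKM and 0 met the rule for a difference. Of the 12, 5 were lower and 3 higher in both libraries of B, beside the same shares of all names, and the median difference over the 9 was 0.06. The mitochondrial glutamate carrier *Slc25a22* among them was also listed at 0 in B2, against 17.5 to 25.5 FPKM in the other libraries.

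Several members lie next to each other in the rn6 genome, and neighbours could differ widely in level. *Slc6a13* and *Slc6a12* are 9232 bases apart on chromosome 4 and on the same strand, and *Slc6a13* was 41.4 times as high. *Slc38a1* and *Slc38a2*, 49023 bases apart on chromosome 7, differed 2.05-fold. On chromosome 1, *Slc6a19* and *Slc6a18* (3135 bases apart) and *Slc6a3* were at or near 0 together, and on chromosome 10 *Slc36a3* and *Slc36a2* were at or near 0 beside *Slc36a1* at 0.537 FPKM. *Slc7a6* and *Slc7a6os* face each other with 1709 bases between their ends on chromosome 19. *Slc7a6* was lower in B, whereas *Slc7a6os* had 18.8 and 20.6 FPKM in A and 19.0 and 16.9 in B.

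Promoter sequences were found for 43 of the 56 members, 1 of them (*Slc6a20*) under a synonym. Among the 13 without one, which could not be searched, were *Slc38a3* and the 2 members higher in B by the rule, *Slc1a5* and *Slc6a13*. The core letters of the amino acid response element, TGATGNAA on either strand, were present in 3 of 44 member promoters (6.82%), against 3.98% of 33469 promoters in the table. These were *Slc38a1*, *Slc7a1* and *Slc1a4*, with means of 7.51, 1.08 and 1.43 FPKM, and none of them met the rule for a difference between A and B. They are printed with 12 bases on each side because they are the candidate response elements of the list, with the core in capitals, on the strand of the gene (GRCr8). *Slc38a1* is at chr7:129681524-129681555 (minus strand), *Slc7a1* at chr12:11664446-11664477 (plus strand) and *Slc1a4* at chr14:98761778-98761809 (minus strand, core read on the opposite strand).
Slc38a1: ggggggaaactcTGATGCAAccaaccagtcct
Slc7a1: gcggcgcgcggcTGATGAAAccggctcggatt
Slc1a4: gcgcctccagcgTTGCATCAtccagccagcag

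Their cores are at positions -142, -30 and -235 from the annotated start. The antioxidant response element core TGACNNNGC was present in 9 of 44 member promoters (20.5%, against 12.1% of all), among them *Slc3a2* and *Slc38a2*, and the E-box CACGTG in 8 (18.2%, against 6.42%), among them *Slc7a5*, *Slc38a7* and *Slc36a1*. All motifs were searched on both strands. In *Slc36a1* an E-box and an antioxidant core overlap. A match of these letters is a description and not a site of binding. Promoters of the 22 matched members at 1 FPKM or more had a median GC content of 61.2% and those of the 21 members below 1 FPKM 54.7%, beside 61.3% and 52.3% for all genes of the tables split the same way. The observed over expected CpG ratio was 0.726 and 0.358 for these members and 0.783 and 0.307 for all genes.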

How the data were processed

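The 4 RNA-seq libraries (2 biological replicates with 2 technical libraries each) were analysed. 2 Start-seq samples were left out, as not analysed here. The authors aligned reads to rn6 with STAR and deposited, per library, FPKM, TPM and coverage (a signal not scaled for depth) of each RefSeq gene. Read counts per library are not used here, so precision is given only as coverage per FPKM. The methods name Rsubread and DESeq2 for FPKM, whereas the layout is that of StringTie, which the submitters' processing notes also name. Versions are not given in the sources used here.

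FPKM was summed over rows of a gene name and averaged over technical libraries within replicates. Log2 values use a pseudocount of 1 and are means over libraries. With 2 replicates of 1 condition no test was made. The counting rule was run on simulated data with known changes, which checks its working only and gives no error rate for these libraries. Members and lists were chosen with earlier results of these data known. Named were the 25 highest members, the highest of each family, members that differed between replicates, heavy and light chains, GABA and glycine carriers, neighbours within 200 kb and members with TGATGNAA. Some genes counted in the totals are not reported here. Other members are named with their means or as listed at 0. Marker and pathway lists are given as counts. Alternatives were TPM, other thresholds and pseudocounts, library scaling, and leaving out a replicate or B2. Those on *Slc7a6os* were added after seeing the data. Promoters were matched by symbol (RefSeq, GRCr8). Python 3.11.15, pandas 2.3.3, numpy 2.4.6 and matplotlib 3.10.9 were used.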

Additional observations from a re-analysis of the deposited data

Results flagged for a closer look

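Across the 4 libraries, 48 values (40 members with a mean of at least 0.1 FPKM, 7 family sums and the depth) were examined for a single library apart from the rest, by the gap to its neighbour divided by the range. There were 9, and 5 of them were in B2. Chance gives about 1 in 20 for independent samples, which does not hold for technical pairs. *Slc7a11* had 60.8 FPKM in B2 and 14.5 to 21.3 FPKM in the others. *Slc6a20* had 2.52 FPKM in B2 and 0.116 to 0.171 FPKM in the others. *Slc7a2* had 0.888 FPKM in B2 against at most 0.299 FPKM, and *Slc6a15* had 0.626 FPKM in B2 against at most 0.265 FPKM. The coverage per FPKM was 6.83 in B2 and at least 22.7 in the others.

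In B1, *Slc6a17* was low with 2.04 FPKM against 4.57 to 5.03 FPKM, *Slc43a1* was high with 1.57 FPKM against 1.02 to 1.10 FPKM, and the sum of Slc7 was low with 134 FPKM against 180.0 to 189 FPKM. The sum of Slc36 was high in A1, with 2.21 FPKM against 1.60 to 1.70 FPKM.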

How the results depend on the processing

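No paired analysis was possible because the mRNA libraries form 1 group, Start-seq was not used here, and no result comes from a test. Of 78 alternatives for the counts, medians, family sums and shares, 63 kept the value within 1.5 times (counts) or the spread between replicates. The cause of the other 15 was not tested, except that TPM is another unit. Only the median log2 difference could change its sign, and it did not. Leaving out a replicate could not move a family sum or share beyond the spread, so these outcomes were fixed in advance. At 5 FPKM 17 members were counted in place of 28. With a limit of 0.58 on the log2 difference 7 members differed between A and B (1732 of all genes, against 645), and without B2 there was 1 (573 of all genes), where the rule as stated gives 4. With a pseudocount of 0.1, which adds *Slc1a1*, there were 5 (894 of all genes) and with TPM 6 (759 of all genes), *Slc6a20* and *Slc7a6* being the additions. Among names at 10 FPKM or more it was 3 (329 of all genes). The median log2 difference was -0.0030 without a minimum level. In TPM the median over members was 1.58, and the family sums were 563 for Slc3, 289 for Slc7, 269 for Slc6, 194 for Slc38, 16.7 for Slc43 and 3.001 for Slc36. Without B2 the Slc38 sum was 103 FPKM, and the share of the leading member was 71.6% for Slc7 and 60.8% for Slc38. With *Slc7a6os* the Slc7 sum was 191 FPKM. Leaving out a replicate of 2 cannot move a mean beyond their SD. For single members, 152 of 200 alternatives stayed within the spread. Of the 152, 50 left out replicate A and 50 left out replicate B, and these could not have moved beyond it. With TPM, another unit, 39 moved and 11 did not. Without B2, 9 moved and 41 did not. Depth limits values under 1 FPKM most in B2.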
